A study of Mus musculus with 20 samples.

Results

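Cdh1 and 5 genes of the epithelial programme around it were followed through all peak lists, 6 of the 21938 protein-coding genes of the annotation. The members were Cdh1, Epcam, Esrp1, Esrp2, Grhl2 and Ovol1, taken by name. For each gene, H3K27me3 peaks within 5 kb of a transcription start site (TSS) and KLF4 peaks and JMJD3 positions in the gene body or 50 kb to either side were listed. Lists were available for 14 of 20 samples of mouse cells, and the other 6 (4 inputs and 2 H3K27ac samples) were not analysed here.

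Epithelial cells hold together through E-cadherin, the adhesion protein encoded by Cdh1, and mouse embryonic fibroblasts (MEFs), which are mesenchymal, keep Cdh1 silent. When MEFs are reprogrammed to pluripotent cells with Oct4, Sox2, Klf4 and c-Myc (OSKM), they pass through a mesenchymal-to-epithelial transition in which Cdh1 and genes like it are switched on. Trimethylation of lysine 27 of histone H3 (H3K27me3) is laid down by Polycomb at silent developmental genes, and JMJD3, an enzyme encoded by Kdm6b, removes it.

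The H3K27me3 libraries came from untreated MEFs (day 0) and from OSKM cells of days 5 and 10 carrying either a FLAG control vector or exogenous JMJD3, in each case from wild-type (WT, labelled C57BL/6J-OG2) and Jmjd3-/- (KO, labelled C57Bl6J) cells. The 2 KLF4 libraries were from WT OSKM cells at day 5 with FLAG or JMJD3. The 2 anti-FLAG libraries were from WT cells at day 5 with FLAG-tagged JMJD3, one with OSKM and one with less KLF4 virus (OSlowKM). OG2 denotes an Oct4-GFP reporter. The strain label differs with the genotype, so the effects of genotype and cell source cannot be told apart. For its knockout reprogramming experiments the study describes WT and KO MEFs of the same litters, without OG2, which differs from the labels. Whether the H3K27me3 libraries came from those cells is not stated. One label calls the virus lentiviral, while the treatment protocol and the study's methods describe retroviral vectors, and all reprogrammed cells were grown in medium with vitamin C. Each group had 1 library, so no difference below had a replicate check and no p-value was computed. Lists of peak positions do not allow a check of the Jmjd3 deletion. H3K27me3 lists held 3045 to 6954 peaks of 1000 bp, each with a score of the peak caller from 6.56 to 200, and the 2 KLF4 lists held 10655 and 14391 peaks without a score. The number of reads behind a list was not used here. Of 10 fibroblast genes, 1 (Thy1) had an H3K27me3 peak in WT MEFs and 0 had one in KO MEFs, near the shares of all genes given below, so that these counts do not check the cell type, and the highest number was 3 (Col1a1, Postn and Thy1) in day 10 KO cells with JMJD3.

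Sequences at the centre of some of the KLF4 peaks around the members are given first, since the results return to these sites. They are windows of 200 bp around the midpoint of a KLF4 peak, on the plus strand of GRCm38 (mm10), and capitals mark the KLF motif CCACNCCC or its reverse complement. The first lies in an intron of Cdh1. The next lies upstream of Epcam, under a KLF4 peak that sat beside a JMJD3 position. The third lies downstream of Esrp2, within the neighbouring gene Nfatc3, and the last in an intron of Grhl2.
Cdh1 intron, chr8:106632564-106632763: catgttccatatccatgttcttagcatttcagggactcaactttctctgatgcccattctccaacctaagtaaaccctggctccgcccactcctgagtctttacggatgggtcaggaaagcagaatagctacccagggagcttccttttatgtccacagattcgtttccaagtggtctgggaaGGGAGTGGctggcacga
Epcam upstream, chr17:87603395-87603594: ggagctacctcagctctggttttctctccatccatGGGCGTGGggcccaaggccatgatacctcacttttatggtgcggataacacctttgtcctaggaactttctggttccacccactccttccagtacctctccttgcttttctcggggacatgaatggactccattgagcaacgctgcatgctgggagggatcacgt
Esrp2 downstream, chr8:106126631-106126830: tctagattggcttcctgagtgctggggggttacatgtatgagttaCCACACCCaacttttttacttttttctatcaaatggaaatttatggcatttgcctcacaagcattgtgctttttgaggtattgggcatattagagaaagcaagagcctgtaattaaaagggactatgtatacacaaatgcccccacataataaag
Grhl2 intron, chr15:37317810-37318009: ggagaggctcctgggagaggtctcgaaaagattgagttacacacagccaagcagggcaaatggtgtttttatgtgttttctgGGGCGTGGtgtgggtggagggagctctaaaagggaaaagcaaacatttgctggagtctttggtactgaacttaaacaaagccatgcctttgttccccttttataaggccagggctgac

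In fibroblasts, before any factor was added, the 6 genes carried H3K27me3 at their starts in both genotypes. A peak within 5 kb of a TSS was called at 6 of 6 members in WT MEFs and at 6 of 6 in KO MEFs, against 14.6% and 10.3% of all protein-coding genes. At day 5 with FLAG, 6 of 6 members still had a peak in WT cells (14.7% of all genes) and 6 of 6 in KO cells (13.7%). With JMJD3 at day 5 the numbers were 4 of 6 in WT (11.0%) and 5 of 6 in KO cells (13.0%). At day 10 they were 5 of 6 with FLAG (12.1%) and 3 of 6 with JMJD3 (8.26%) in WT cells, and 6 of 6 with FLAG (12.8%) and 5 of 6 with JMJD3 (11.7%) in KO cells. The members thus stood above the share of all genes in each of the 10 lists, and the libraries with JMJD3 held fewer of them than the FLAG libraries of the same day and genotype. Esrp1, Grhl2 and Ovol1 had a peak in 10 of 10 lists, as did 4.68% of all genes. Epcam had one in 9 lists, Esrp2 in 7 and Cdh1 in 6. At least 7 lists held a peak at 5 of the 6 members, against 9.87% of all genes.

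**Figure D1:**
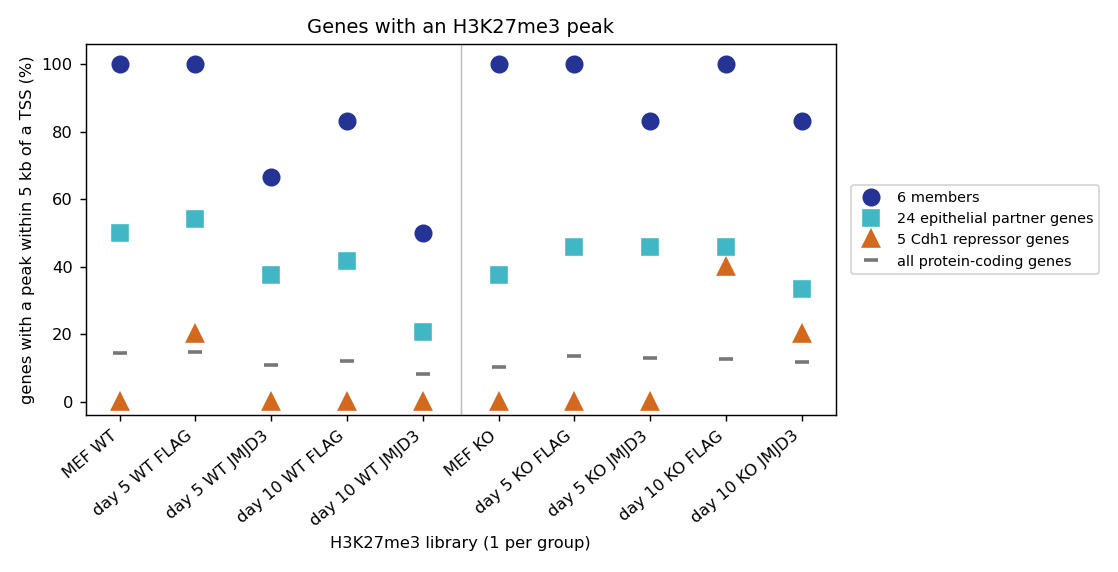
Share of genes marked by H3K27me3 at a TSS, at a distance of up to 5 kb (y axis, percent), in each of the 10 libraries (x axis, 1 library per group), for the 6 members, 24 epithelial partner genes, 5 repressors of Cdh1 and all protein-coding genes. The members lie highest in every library, with the lowest count, 3 of 6, in day 10 WT cells with JMJD3.

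To compare peaks between lists of different length, each score is given as its percentile in its own list, where 100 is the highest score and a percentile is the share of the list's peaks that scored no higher. Cdh1 encodes the adhesion protein itself (chromosome 8, 106603351 to 106670246, plus strand, GRCm38). Its highest peak stood at percentile 97.5 in WT MEFs, rank 176 of 6954, and at 93.5 in KO MEFs. With FLAG at day 5 it stood at 82.2 in WT and 83.8 in KO cells. With JMJD3 at day 5, WT cells had no peak and KO cells had peaks at percentiles 28.7 and 4.39. At day 10, a Cdh1 peak was called in KO cells with FLAG, at 43.6, and in none of the other 3 libraries. The order at Cdh1 was therefore MEFs first, then day 5 with FLAG, then the other libraries, in both genotypes. The scores of these highest peaks ran from 94.6 in WT MEFs (chr8:106603541-106604540) to 8.83 in day 5 KO cells with JMJD3 (chr8:106603327-106604326), and their midpoints lay 0.24 to 0.91 kb downstream of the gene start, in an intron. The amplicon that the study used for ChIP-qPCR just downstream of the Cdh1 start (chr8:106604001-106604189) overlapped a called peak in 6 lists, the same 6 that had a Cdh1 peak. This amplicon and the peak lists thus looked at the same stretch. The study's amplicon at -0.13 kb overlapped a peak in 2 lists, both of day 5 KO cells. Its Cdh1 amplicons farther inside the gene overlapped none.

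Epcam encodes a surface adhesion molecule of epithelial cells (chromosome 17, 87635979 to 87651129, plus strand). Its peak stood at percentile 95.0 in WT MEFs and 93.9 in KO MEFs. In WT cells it was at 92.4 with FLAG and 35.0 with JMJD3 at day 5, and at 49.2 with FLAG at day 10, with no peak with JMJD3. In KO cells it was at 96.9 with FLAG and 75.7 with JMJD3 at day 5, and at 24.0 and 30.0 at day 10. Unlike Cdh1, Epcam still had a peak with JMJD3 at day 5 in WT cells, but one in the lower part of its list. Scores ran from 75.7 in WT MEFs (chr17:87636409-87637408) to 7.79 in day 10 KO cells with FLAG (chr17:87636298-87637297). The Epcam peaks lay 0.77 to 0.98 kb downstream of the gene start, and all 9 began downstream of the promoter window printed here. That window is from a RefSeq table (GRCm38.p6), which 1 of the 6 members matched, and is shown because it holds the E-box CAGGTG, in capitals, on both strands. The E-box is the sequence to which the SNAIL and ZEB repressors of epithelial genes bind.
Epcam promoter, chr17:87635729-87636028: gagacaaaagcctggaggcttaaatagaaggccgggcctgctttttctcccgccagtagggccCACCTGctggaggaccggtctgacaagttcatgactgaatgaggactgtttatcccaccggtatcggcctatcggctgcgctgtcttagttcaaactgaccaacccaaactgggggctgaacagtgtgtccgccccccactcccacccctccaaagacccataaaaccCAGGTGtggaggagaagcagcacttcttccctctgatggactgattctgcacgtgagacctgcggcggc
This window had 2 E-boxes. At least 1 E-box was present in 20.2% of all 32851 promoter windows of the table, and 2 or more in 2.88%. The window also had 1 KLF motif (CCACNCCC on either strand), as 17.6% of all windows had at least 1. A match of letters does not show that a factor is bound there. Of the 2 Epcam amplicons of the study nearest to the start, the one at the promoter (chr17:87635846-87635998) overlapped a called peak in no list and the one just inside the gene (chr17:87636220-87636359) in 5 lists.

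Esrp1 and Esrp2 encode RNA-binding proteins that direct the epithelial pattern of splicing, and the pair differed in these lists. Esrp1 (chromosome 4, 11331933 to 11386783, minus strand) stood at percentile 77.3 in WT MEFs and 50.6 in KO MEFs. In WT cells it was at 97.2 with FLAG and 95.3 with JMJD3 at day 5, and at 93.1 and 33.6 at day 10. In KO cells it was at 96.0 and 99.0 at day 5 and at 92.8 and 94.7 at day 10, FLAG first. Esrp1 was the one member with a lower percentile in MEFs than at day 5 with FLAG in both genotypes. The peaks compared were not at the same place. The highest peak was centred upstream of the start in MEFs, at -0.22 kb in WT and -2.19 kb in KO cells. At day 5 with FLAG it was centred inside the gene, at 0.98 kb in WT and 1.31 kb in KO cells. The KO MEF peak inside the gene stood at 18.1. Esrp1 also had peaks both upstream and downstream of its start in both day 5 pairs, in day 10 WT cells with JMJD3 and in KO MEFs. In day 5 WT cells with FLAG, one peak (score 87.5, chr4:11385302-11386301) lay at 0.98 kb in the gene and another (score 12.9, chr4:11389652-11390651) at -3.37 kb, upstream, at percentile 49.2. With JMJD3 the upstream peak (score 24.3), at -2.85 kb, stood at 76.4, so that it was higher in its list while the downstream one was slightly lower. In day 5 KO cells both peaks stood higher with JMJD3, the upstream one at 48.3 with FLAG and 73.4 with JMJD3.

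Esrp2 (chromosome 8, 106130319 to 106136974, minus strand) stood at percentile 75.9 in WT and 79.9 in KO MEFs. With FLAG at day 5 it was at 40.9 in WT and 40.7 in KO cells, and neither genotype had a peak with JMJD3. At day 10 it was at 22.8 with FLAG in WT cells, with no peak with JMJD3, and at 64.1 with FLAG and 17.6 with JMJD3 in KO cells. Scores ran from 27.3 in WT MEFs (chr8:106135541-106136540) to 7.46 in day 10 KO cells with JMJD3 (chr8:106136435-106137434). In the FLAG libraries of WT cells Esrp2 had the lowest percentile of the members that had a peak. Both Esrp genes encode the same kind of protein, yet at day 5 with JMJD3 the Esrp1 peak was among the highest of its list in both genotypes and Esrp2 had none in either.

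Grhl2 and Ovol1 encode transcription factors of epithelial cells. GRHL2 binds and keeps open the regulatory regions of Cdh1 and other epithelial genes, and OVOL1 opposes the ZEB repressors. Grhl2 (chromosome 15, 37233036 to 37363569, plus strand) had a score of 200 in WT MEFs, the highest of that list, which 10 of its 6954 peaks shared (chr15:37233118-37234117). In KO MEFs it stood at percentile 93.5. In WT cells it was at 99.6 with FLAG and 92.1 with JMJD3 at day 5 and at 90.2 and 60.4 at day 10. In KO cells it was at 91.7 and 90.6 at day 5, FLAG first. The widest gap between vectors at any peak called with both was at Grhl2 in day 10 KO cells, 95.5 with FLAG and 24.9 with JMJD3, where the JMJD3 list had 2 overlapping peaks. Grhl2 also had a second, upstream peak at -2.76 kb in day 10 WT cells with JMJD3 (percentile 38.1) and at -2.40 kb in day 10 KO cells with FLAG (percentile 1.15).

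Ovol1 (chromosome 19, 5549136 to 5560646, minus strand), with scores of its highest peaks from 111 in day 5 WT cells with FLAG (chr19:5560027-5561026) to 8.74 in day 10 WT cells with JMJD3 (chr19:5559690-5560689), stood at percentile 98.2 in WT and 98.9 in KO MEFs. In WT cells it was at 98.7 and 96.4 at day 5 and at 71.6 and 36.8 at day 10, FLAG first. In KO cells it was at 94.7 and 95.1 at day 5 and at 86.0 and 86.3 at day 10. In KO cells the Ovol1 values with FLAG and JMJD3 lay within 1 percentile point of each other on both days, while in WT cells the value with JMJD3 was the lower one on both days. A second Ovol1 peak was called in day 10 WT cells with JMJD3, at 1.21 kb in the gene (score 6.80, percentile 4.37). By rank the day 5 KO peak stood at 302 of 5643 with FLAG and 321 of 6539 with JMJD3.

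**Figure D2:**
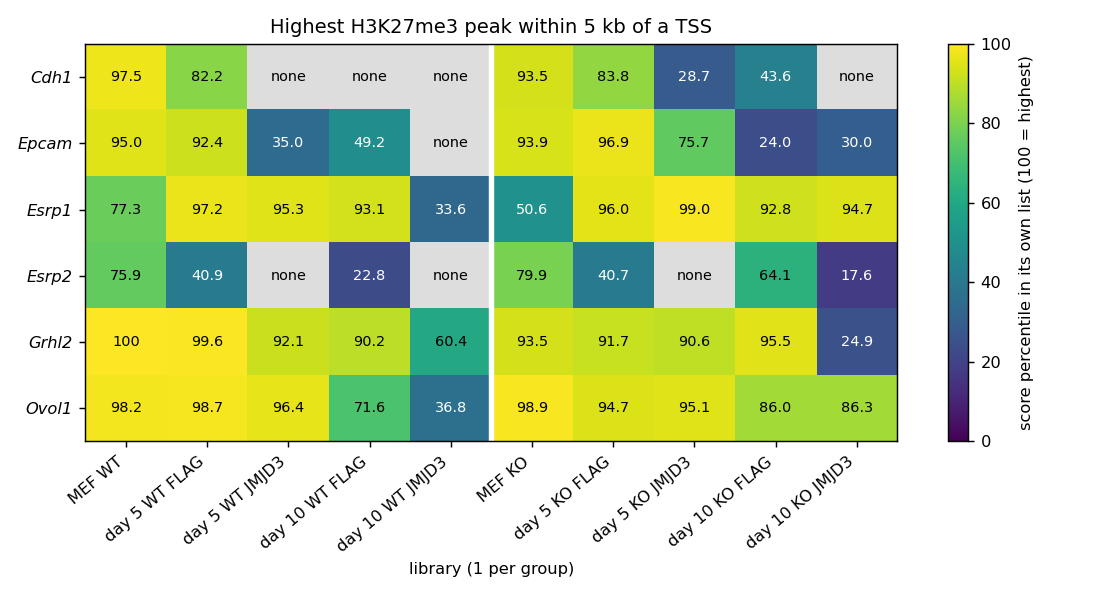
Percentile of the highest H3K27me3 peak near each gene start, relative to its own list (colour and number, 100 is the highest score) for the 6 members (rows) in the 10 libraries (columns), and "none" where no peak was called. Low values and missing peaks lie mostly in the libraries with JMJD3 and at day 10, while Esrp1 and Ovol1 stay above percentile 86 in the reprogrammed KO cells.

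The comparison of JMJD3 with FLAG asks whether added demethylase removes the mark from these genes. In day 5 WT cells 2 of 6 members, Cdh1 and Esrp2, were marked with FLAG but lacked a peak with JMJD3, against 31.8% of all 3230 genes that had a FLAG peak. In day 5 KO cells this was so at 1 of 6 members, Esrp2 (20.5%). In day 10 WT cells it was so at 2 of 5, Epcam and Esrp2 (41.3%), and in day 10 KO cells at 1 of 6, Cdh1 (25.1%). Counted in this way the members were not set apart from other marked genes, and 3 of the 4 pairs left no member that could gain a peak, since all 6 had one with FLAG. In day 10 WT cells Cdh1 had no peak with either vector. Of all genes without a FLAG peak, 1.12%, 2.48%, 1.30% and 2.42% had one with JMJD3, in the same order of pairs. The share of genes with no peak with JMJD3 was higher where the FLAG score was lower. Over all marked genes of day 5 WT cells, 77.1%, 59.0%, 30.6% and 5.70% lacked a peak with JMJD3 when their highest FLAG peak lay in quartile 1, 2, 3 or 4 of the list's scores, 4 being the top. Esrp2 was in quartile 2 and Cdh1 in quartile 4. In day 5 WT cells the 5 members with a top-quartile peak were Cdh1, Epcam, Esrp1, Grhl2 and Ovol1, and of these Cdh1 had no peak with JMJD3. The corresponding shares in quartiles 1 to 4 were 58.5%, 39.1%, 14.8% and 2.13% in day 5 KO cells, where Esrp2 was in quartile 2. They were 72.6%, 64.2%, 43.1% and 17.0% in day 10 WT cells, where Esrp2 was in quartile 1 and Epcam in quartile 2. In day 10 KO cells they were 59.9%, 44.7%, 22.2% and 5.19%, with Cdh1 in quartile 2. Of the 6 missing peaks, Cdh1 in day 5 WT cells was thus the one with a FLAG peak from quartile 3 or 4. It was also missing in each of the 5 alternatives tried. The lists of a pair differed in length, with 6428 peaks with FLAG and 5064 with JMJD3 in day 5 WT, 5643 and 6539 in day 5 KO, 5131 and 3045 in day 10 WT and 5376 and 4878 in day 10 KO cells. With all lists at a common length the day 10 counts were 1 (Epcam) in WT and 3 (Cdh1, Esrp2 and Grhl2) in KO cells, and with the better-scoring 50% they were 2 (Esrp1 and Ovol1) and 2 (Esrp2 and Grhl2).

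Where a peak was called with both vectors, its place in the list was compared. In day 5 WT cells the percentile was lower with JMJD3 at 4 of 4 members, with differences (JMJD3 minus FLAG) of -57.4 points at Epcam and -7.46, -2.30 and -1.83 points at Grhl2, Ovol1 and Esrp1. Over all 2203 genes with a peak in both lists, the median difference was -5.29, with quartiles of -19.6 and 3.85. Epcam thus lay outside the middle range of other genes, and the other 3 within it. In day 5 KO cells the difference was -55.2 at Cdh1 and -21.2 at Epcam, against a median of 1.83 and quartiles of -9.20 and 13.6 over 2383 genes, and -1.05, 0.440 and 2.97 at Grhl2, Ovol1 and Esrp1. A peak at the top of its list has little room to stand higher, and over genes with a FLAG peak in quartile 4 the median difference was -6.81 for the WT pair of day 5 and -1.87 for the KO pair. Among members with a FLAG peak from quartile 3 or 4 at day 5, the adhesion genes Cdh1 and Epcam therefore had the lowest values with JMJD3 in each genotype. This leaves out Esrp2, at 40.9 (WT) and 40.7 (KO) with FLAG, which had no peak with JMJD3 in either genotype.

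In day 10 WT cells the differences were -59.5 at Esrp1, -34.8 at Ovol1 and -29.8 at Grhl2. All 3 lay below the lower quartile of all genes, -26.5 (median -6.64, 1562 genes; median -11.8 for genes with a FLAG peak in quartile 4). In day 10 KO cells they were -70.6 at Grhl2 and -46.5 at Esrp2, and 5.98, 1.93 and 0.335 at Epcam, Esrp1 and Ovol1, with a median of -1.36 (-5.53 for quartile 4) and quartiles of -16.1 and 10.9 over 2103 genes. The 3 genes marked in all 10 lists thus had their lowest percentiles in day 10 WT cells with JMJD3, except Grhl2, whose lowest was in day 10 KO cells with JMJD3. Part of a percentile difference can come from list length, since the day 10 WT list with JMJD3 held 3045 peaks and the FLAG list 5131. By rank from the top, FLAG first, Ovol1 stood at 1457 and 1926 in WT and at 753 and 667 in KO cells, and Esrp1 at 353 and 2022 in WT and at 390 and 260 in KO cells. The difference between the genotypes was not tested.

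The time course with FLAG asks when the mark leaves these genes without exogenous JMJD3. From MEFs to day 5 with FLAG, 0 of 6 members were no longer called in WT cells and 0 of 6 in KO cells, against 22.2% and 15.2% of all marked genes. Between MEFs and day 10 with FLAG the number was 1 of 6 in WT (36.6%) and 0 of 6 in KO cells (23.5%). From day 5 to day 10 with FLAG, 1 of 6, Cdh1, was no longer called in WT cells (28.5%) and 0 of 6 in KO cells (22.6%). With JMJD3, 1 of 4 members, Epcam, was no longer called at day 10 in WT cells (38.6%) and 1 of 5, Cdh1, in KO cells (25.1%), where Esrp2 had a peak at day 10 and none at day 5. Cdh1 was the one member absent from the day 10 WT FLAG list, having been at percentile 82.2 of the day 5 WT FLAG list. Between the genotypes, 6 of 6 members marked in WT MEFs were also marked in KO MEFs, while 35.6% of all genes marked in WT MEFs were not.

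The position and base composition of the peaks were not used to choose the genes. The highest peak lay downstream of the gene start at all members with a peak in 8 of the 10 lists. In both MEF lists it did so at 5 of 6, the exception being Esrp1. Over all marked genes the share was 67.9% to 79.9%, so a downstream peak was the usual case. The ratio of observed to expected CpG (1 where CpG is as common as its base content would give) had a median over the members of 0.691 to 0.932 across lists, against medians of 0.491 to 0.578 over all peaks near a TSS. The 10 lists are not independent, since they hold the same genes, and single members differed. In KO MEFs the ratio was 0.427 at Esrp1 and 0.460 at Esrp2, below the median of all such peaks in that list (0.496). Ratios at the highest peaks ranged from 0.930 to 0.991 at Epcam and from 0.553 to 0.708 at Cdh1, so the ranges of the 2 adhesion genes did not overlap. Median GC content over the members was 58.8% to 64.8%, against 55.5% to 58.8% over all such peaks.

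**Figure D3:**
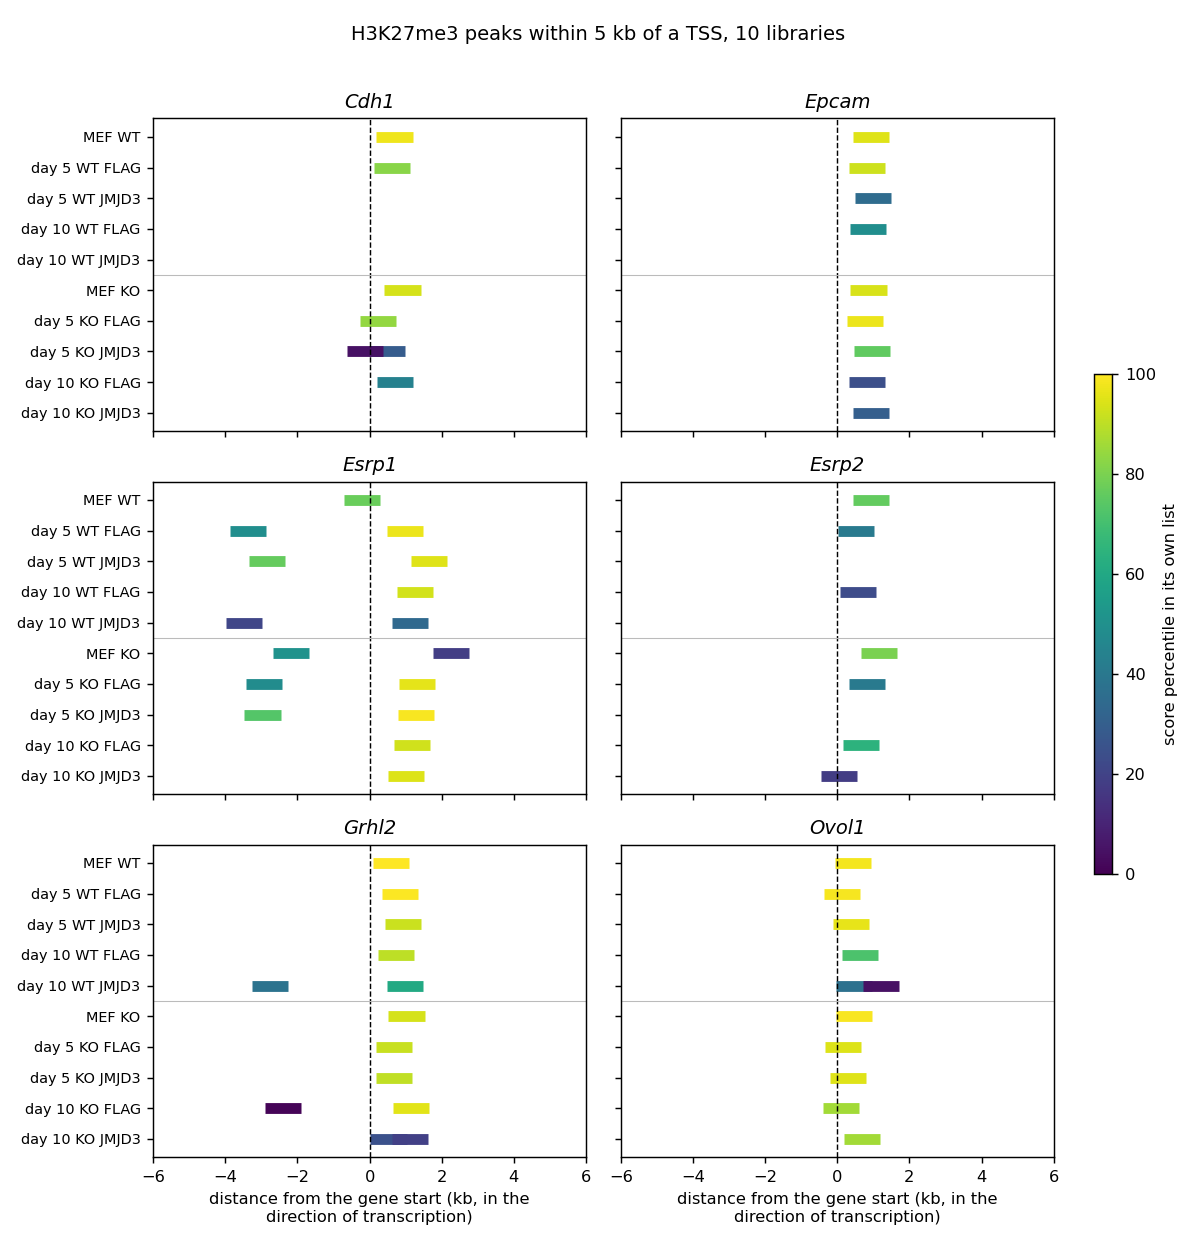
H3K27me3 peaks (bars of 1000 bp) near each start against the distance from the gene start (x axis, kb, in the direction of transcription) in the 10 libraries (y axis), with the colour giving the score percentile in the list. Most bars lie just downstream of the start, at 0.77 to 0.98 kb for Epcam, while Esrp1 has bars on both sides in several libraries, Grhl2 in 2 and Cdh1 one centred at -0.12 kb.

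KLF4, the reprogramming factor tied to the epithelial genes, was present around every member at day 5. A KLF4 peak in the gene or 50 kb to either side was called at 6 of 6 members with FLAG (59.5% of all genes) and at 6 of 6 with JMJD3 (67.2%), with 14 and 20 peaks in all. The window grows with the gene, and 3 members were longer than the median protein-coding gene (17.4 kb), Cdh1 at 66.9 kb, Esrp1 at 54.9 kb and Grhl2 at 131 kb. The nearest TSS was that of the member for 9 of the 14 peaks with FLAG and for 10 of the 20 with JMJD3. Peaks and positions whose midpoints followed each other within 400 bp were merged, which gave 21 sites with KLF4. Of these, 11 were in both lists (56.2% of all KLF4 sites), 8 in the JMJD3 list alone (33.6%) and 2 in the FLAG list alone (10.2%), which is close to the shares over all sites.

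Of the 8 sites of the JMJD3 list alone, 5 lay within 336 bp of the TSS of a neighbour. Among these neighbours were Tango6 downstream of Cdh1, Pla2g15 and Slc7a6 upstream of Esrp2 and Ap5b1 upstream of Ovol1. The other 3 lay 22.5 kb upstream of Epcam, in an intron of Grhl2 and on the start of Esrp2. Some sites of both lists also lay this near a neighbour, at Dpy19l4, Ap5b1 and Kat5. The share over all sites of the JMJD3 list alone was not computed, so the count does not set these sites apart. The Esrp2 peak (chr8:106136881-106137063) was centred 2 bp inside the gene and overlapped the H3K27me3 peak of day 5 WT cells with FLAG, which was not called with JMJD3. At 183 bp it was of the smallest width in its list, as were 769 of 14391 peaks. Ovol1 had the reverse, a KLF4 peak of FLAG cells alone (chr19:5559975-5560148) 0.58 kb inside the gene, overlapping the H3K27me3 peak of FLAG cells. It too was of the smallest width, 174 bp, which 707 of 10655 peaks had. These were the only KLF4 peaks or JMJD3 positions of the 6 genes that overlapped an H3K27me3 peak of day 5 WT cells with FLAG. At Esrp1, KLF4 peaks lay 1.15 kb (FLAG) and 1.40 kb (JMJD3) upstream of the start, between the H3K27me3 peaks on either side.

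At sites of both lists the widths of the KLF4 peaks were compared, summed where a list had more than 1 peak at a site, as with FLAG at Epcam and with JMJD3 downstream of Esrp2. The summed width was larger with JMJD3 at 9 of 11 sites of the members, near the 71.1% of all 8845 sites, with a median ratio of 1.31 and 1.13. The Cdh1 intron site had the largest ratio of the members, 2.98, with a single peak of 174 bp with FLAG, the smallest width of that list, and of 519 bp with JMJD3. The 2 sites that were narrower with JMJD3 were both at Ovol1, 31.0 kb downstream of its start (0.887) and 7.1 kb upstream (0.762). Peak width depends on the signal and on the depth of the library, and the part of depth was not tested.

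JMJD3 itself was found around 5 of 6 members in OSKM cells (55.6% of all genes), with 9 positions, and around none of the 6 with low KLF4 (14.1%). For 6 of the 9 positions the nearest TSS was that of the member. Of the 14019 JMJD3 sites of OSKM cells over the genome, 87.1% had no position in the low-KLF4 list within 400 bp, and that list was shorter (2284 against 14067 positions). The absence of low-KLF4 positions at the members was thus what most sites had, and the part of library depth was not tested. Ovol1 was the one member without a JMJD3 position.

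The 9 positions formed 8 sites, and 4 of these had a KLF4 peak within 400 bp, one each at Epcam, Esrp1, Esrp2 and Grhl2 (36.0% of all JMJD3 sites). At Epcam, a JMJD3 position at chr17:87603439 lay 55 bp from the midpoint of a KLF4 peak of FLAG cells, 32.5 kb upstream of the start, and a KLF4 peak of 781 bp covered it with JMJD3. At Grhl2 the JMJD3 position (chr15:37317899) lay 2 bp from the KLF4 midpoint of FLAG cells and 10 bp from that of JMJD3 cells, in an intron 84.9 kb inside the gene. The Esrp2 pair, 69 bp apart in JMJD3 cells, lay 10.18 kb downstream of the gene start within Nfatc3, with Esrp2 as the nearest TSS. The Esrp1 pair, 141 bp apart, lay 64.74 kb downstream of the start, 90 bp from the TSS of Dpy19l4, and cannot be assigned to Esrp1 by position. The second JMJD3 position of Grhl2 lay past the end of the gene, at 139.11 kb, within Ncald.

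Cdh1 had both factors in the same intron but not at the same place. The KLF4 peak (chr8:106632404-106632922 with JMJD3) was called in both KLF4 lists, 29.3 kb inside the gene, and the JMJD3 position (chr8:106631865) lay 798 bp from its midpoint, beyond the 400 bp used for merging. With a merging distance of 1000 bp they formed one site. A second JMJD3 position (chr8:106599764) lay 3.59 kb upstream of the Cdh1 start and 32899 bp from the nearest KLF4 midpoint. The amplicon that the study used for the Cdh1 enhancer (chr8:106632777-106632948) overlapped the KLF4 peak of JMJD3 cells and lay 19 bp from that of FLAG cells.

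**Figure D4:**
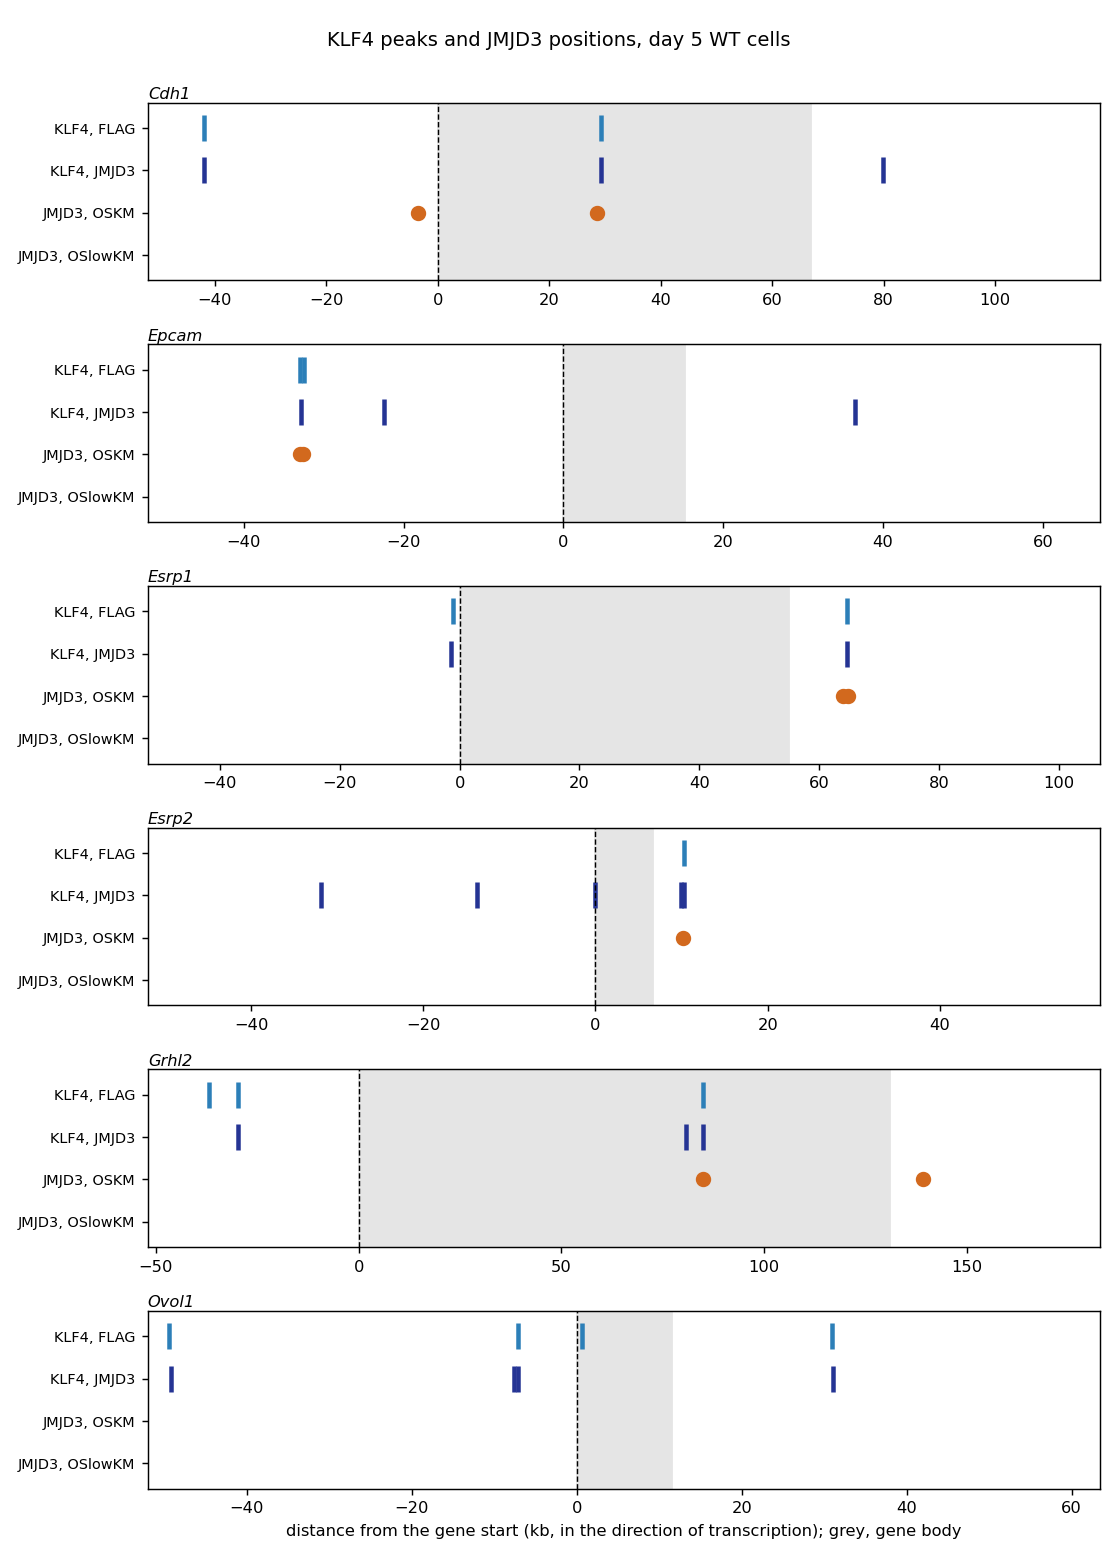
KLF4 peaks (ticks, with FLAG or JMJD3) and JMJD3 positions (dots, with OSKM or OSlowKM) in day 5 WT cells against the distance from the gene start (x axis, kb, in the direction of transcription), with 1 panel per member and the gene body in grey. Ticks and dots lie together about 33.0 kb upstream of Epcam and 84.9 kb inside Grhl2, and the OSlowKM row is empty in all 6 panels.

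The 200 bp windows were searched on both strands for fixed letters. The KLF motif CCACNCCC was found in 8 of the 14 KLF4 windows of FLAG cells (35.5% of all windows of that list) and in 7 of the 20 of JMJD3 cells (33.6%), where many windows of the 2 lists overlap. The 4 windows printed above, the Epcam one from the FLAG list and the others from the JMJD3 list, held 1 copy each. They are a selection, and the window at the Esrp1 pair, which is not printed, held none. The window on the start of Esrp2 and the one inside Ovol1 held none. Around the JMJD3 positions the KLF motif was in 3 of 9 windows (14.6%), both at Epcam and one at Grhl2, and with windows of 400 bp it was in 6 of 9 (23.3%). The SOX motif ACAANG was in 6 of 9 (50.4%), and the OCT motif ATGCAAAT with up to 1 mismatch in 6 of 9 (31.3%). At the Cdh1 intron position of JMJD3 the window held 3 SOX and 1 OCT match and no KLF match, and at its upstream position 1 OCT match. Of the 2 Cdh1 positions neither thus had the KLF letters, while the KLF4 peak next to the intronic one did.

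Other epithelial genes were counted from a list of 24 partners, among them Ovol2 and Grhl1 (relatives of 2 members), Cdh3 (P-cadherin) and the polarity gene Crb3. A peak near a TSS was called at 12 of 24 in WT and 9 of 24 in KO MEFs. In WT cells the numbers were 13 with FLAG and 9 with JMJD3 at day 5 and 10 and 5 at day 10, and in KO cells 11 and 11 at day 5 and 11 and 8 at day 10. At most 12 of 24 partners were thus marked in all but the day 5 WT FLAG list. In day 5 WT cells 4 of 13 marked partners had no peak with JMJD3, namely Grhl1, Grhl3, Rbm47 and St14, and none of the other 11 gained one, against 31.8% of all marked genes without a peak with JMJD3. In the other pairs it was 1 of 11 partners in day 5 KO (20.5% of all marked genes), 5 of 10 in day 10 WT (41.3%) and 4 of 11 in day 10 KO cells (25.1%). In each KO pair 1 partner had a peak with JMJD3 alone, Prss8 at day 5 and Grhl1 at day 10. Of all genes without a FLAG peak, 2.48% and 2.42% gained one in these pairs. Over all genes 8.26% to 14.7% were marked per list, less than the share of partners in each.

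Of 5 repressors of Cdh1 (Zeb1, Zeb2, Snai1, Snai2 and Twist1), which fibroblasts express, 0 had a peak in the MEF lists of either genotype, where 14.6% (WT) and 10.3% (KO) of all genes had one. At day 5 Snai1 had one in WT cells with FLAG but not with JMJD3. In day 10 KO cells Snai1 and Twist1 had one with FLAG and Twist1 had one with JMJD3. The repressors were unmarked in the other 7 lists, and with 8.26% to 14.7% of all genes marked per list, 0 of 5 is near the share of all genes.

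Genes with the same presence pattern over the 10 lists were sought among the 4925 genes with a peak in any list. The pattern of Cdh1 was shared by 10 other genes and that of Esrp2 by 8, while 231 had that of Epcam and 1026 genes in all, these 3 included, had that of Esrp1, Grhl2 and Ovol1. Genes were ordered by the mean absolute difference of percentile over the lists in which the member had a peak. The values of different members therefore rest on different sets of lists. The nearest to Cdh1 were Large2 and Pex16 (12.7 points each) and Kctd19 (22.3). For Epcam they were Gucy2e (9.25), Sgpp2 (12.5) and Kbtbd11 (14.4), and for Esrp2 Fam89a (10.0), Rasgef1a (14.5) and Macf1 (16.5). For Grhl2 the nearest was Ovol2 (6.40), a relative of Ovol1, followed by Odf3b and Sco2 (7.07 each). For Esrp1 they were Kcnd3, Tmem132e and Galr3 (6.33 to 6.68), and for Ovol1 Dgkz, Slc27a2 and Fgf8 (5.23 to 5.59).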

How the data were processed

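Chromatin immunoprecipitation followed by sequencing (ChIP-seq) peak lists were used as deposited. Bowtie2 (2.2.0 in the submitters' processing notes) was the aligner of the authors for mm10. Their peak callers, run library by library, were DFilter (H3K27me3) and MACS2 (KLF4, JMJD3). The deposited H3K27me3 score is a value of the authors' peak caller on a scale not given in the sources used here, and was compared only by rank within a list. The authors scaled H3K27me3 reads by a Drosophila spike-in, and whether this entered the peak calls is not given, so a missing peak is not an amount of the mark. The deposited KLF4 intervals and JMJD3 positions of 1 bp have no score.

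Groups came from the sample labels. GENCODE M21 basic transcripts gave the TSSs, and sequence was from GRCm38, the build of mm10. Members, gene lists and comparisons were chosen with earlier results of these data known. All 6 members were named, as were partners and repressors that differed between vectors in day 5 WT cells, genes of the same pattern and genes whose TSS was nearest to a KLF4 peak or JMJD3 position. The score quartiles, the KLF4 widths, and the naming of Nfatc3, Ncald and of further partner, repressor and fibroblast genes came after values were seen. Gene calls were checked against bedtools 2.31.1 on a simulated list, where all 200 planted genes were recovered. Python 3.11.15, pysam 0.24.0, samtools 1.23.1 and matplotlib 3.10.9 were used. Alternatives covered distances, TSS sets, list lengths, score filters, merging distance and motif window. A few named items are not reported here.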

Additional observations from a re-analysis of the deposited data

Results flagged for a closer look

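At 3 members the percentile with JMJD3 lay on one side of the FLAG value in one condition and on the other side in another. Each rests on 1 library per group, and the difference was not tested in any case. At Esrp1 the FLAG and JMJD3 percentiles of day 5 were 97.2 and 95.3 in WT cells, but 96.0 and 99.0 in KO cells, 2.97 points higher with JMJD3. For day 10 the Esrp1 percentiles were 93.1 and 33.6 in WT cells, but 92.8 and 94.7 in KO cells, 1.93 points higher. At Ovol1 the values of day 5 were 98.7 and 96.4 in WT cells, but 94.7 and 95.1 in KO cells, 0.440 points higher. By rank from the top of the list, Ovol1 stood lower with JMJD3 in both genotypes (83 and 182 in WT, 302 and 321 in KO cells), so this opposite direction is present in percentiles and absent in ranks. Those of day 10 were 71.6 and 36.8 in WT cells (ranks 1457 and 1926, in lists of 5131 and 3045 peaks), but 86.0 and 86.3 in KO cells (ranks 753 and 667), 0.335 points higher. At Epcam the FLAG value of day 10 was 49.2 in WT cells, where no peak was called with JMJD3, while KO cells had 24.0 and 30.0, 5.98 points higher with JMJD3. In KO cells Epcam also differed in direction between days, with 96.9 and 75.7 at day 5. The KO differences of 0.335 to 5.98 points lie between the quartiles of all genes of the same pair. Genotype and strain label cannot be told apart.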

How the results depend on the processing

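Distances of 2 or 10 kb to a TSS, other TSS sets and the midpoint rule changed no count of members with a peak. Filters on score did. With the better-scoring 50% of each list, members with a peak at day 10 were 3 of 6 with FLAG and 1 with JMJD3 in WT cells and 2 with JMJD3 in KO cells. With all 10 lists reduced to the length of the shortest, the last count was 2 as well. Members marked with FLAG but not with JMJD3 in day 10 WT cells were 1 (Epcam) with both lists of a pair at equal length and 1 with all lists at common length, and 2 other genes (Esrp1 and Ovol1) with the better-scoring 50%. In day 10 KO cells they were 3 (Cdh1, Esrp2 and Grhl2) at common length and 2 (Esrp2 and Grhl2) with the better-scoring 50%. In day 5 WT cells the count stayed at 2 in the 5 alternatives, each time with Cdh1, but at common length and with the better-scoring 50% the other gene was Epcam instead of Esrp2. In day 5 KO cells these same alternatives gave Cdh1 in place of Esrp2. With 100 kb to either side, 1 member, Ovol1, had a JMJD3 position with low KLF4. With motif windows of 400 bp in place of 200 bp, 6 instead of 3 of the 9 JMJD3 windows held the KLF motif. The other 99 alternative values were within 1.5 times the main one. No paired analysis was possible because each group had 1 library, the labels give no replicate numbers and no result comes from a test. The lists give presence above a threshold that is not given, without reads or input signal, so a peak just below it in one library counts as absent, and no value has an error from replicates.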
